A study of Drosophila melanogaster with 3 samples.

Results

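The genes described here are the transfer RNA (tRNA) genes of the nuclear genome of Drosophila melanogaster, and the measurement is where a GFP-tagged caup protein was found around them. All genes of biotype tRNA on the 6 nuclear arms, X, 4 and both arms of chromosomes 2 and 3, in the Ensembl annotation of dm6 were taken, which gave 290 tRNA genes of 18164 genes on these arms. Chromosome arm 4 held none, and 22 mitochondrial tRNA genes are not members. Chromatin immunoprecipitation followed by sequencing (ChIP-seq) with an antibody against GFP was done on whole embryos of both sexes, aged 0 to 24 h, in 3 biological replicates of a single group. All embryos came from a stable transgenic line, strain caup-GFP, in which GFP is joined to the C terminus of caup, a DNA-binding homeodomain protein encoded in the Iroquois gene complex. No other genotype, treatment or stage was part of the comparison, and no source used here gives the promoter that drives the transgene. A whole embryo mixes all its cell types, so a region at a tRNA gene cannot be placed in any of them.

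Transfer RNAs carry amino acids to the ribosome, and their genes are transcribed by RNA polymerase III rather than by the polymerase of protein-coding genes. Their promoter lies inside the gene: the A box and the B box are bound by the factor TFIIIC, which brings TFIIIB to the DNA just upstream of the start. Many tRNA genes occur as identical copies, often in tight groups.

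The deposited data are lists of genomic regions, each with a summit and a signal value, the authors' enrichment statistic. The optimal set holds 6056 peaks that passed the authors' test of reproducibility between replicates, and the pooled list holds 30000 regions of the combined replicates. The optimal set is the 6056 pooled regions of highest signal value, so the other 23944 pooled regions are called weak regions below. A tRNA gene is called when an optimal summit lies within 1 kb of its start. Each replicate also has a list of 30000 regions, whose 6056 strongest are called its top regions. Depth is unknown, and lists of equal length hold equal numbers of regions whatever the library. Replicate 2 stood apart at the tRNA genes in its full list, whose 30000 regions reached 169 of the 290 genes within 1 kb (58.3%), against 212 for replicate 1 (73.1%) and 207 for replicate 3 (71.4%). Over all genes the same lists reached 51.7%, 54.7% and 49.6% for replicates 2, 1 and 3. In the top regions replicate 2 was not the lowest: they reached 44, 45 and 36 tRNA genes in replicates 1, 2 and 3.

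The sequences of 5 called tRNA genes are shown because their summits carry the results that follow. Each runs 5′ to 3′ on the gene's own strand in dm6, and capitals mark the match to the B box motif GTTCNANNC. The 2 tyrosine genes are neighbours that share the strongest summit at any tRNA gene.
tRNA:Tyr-GTA-1-8, chr3R:8669081-8669174, minus strand: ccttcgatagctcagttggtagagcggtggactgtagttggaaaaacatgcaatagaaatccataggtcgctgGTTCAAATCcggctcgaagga
tRNA:Tyr-GTA-1-7, chr3R:8668612-8668705, minus strand: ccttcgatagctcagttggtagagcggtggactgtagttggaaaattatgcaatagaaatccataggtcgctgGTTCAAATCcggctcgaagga
tRNA:Leu-TAA-2-1, chr3R:24112964-24113047, plus strand: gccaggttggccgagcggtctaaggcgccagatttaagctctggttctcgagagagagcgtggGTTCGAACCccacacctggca
tRNA:Ser-AGA-2-4, chr2L:3173003-3173084, minus strand: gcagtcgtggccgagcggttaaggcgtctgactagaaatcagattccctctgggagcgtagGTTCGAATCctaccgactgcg
tRNA:Asp-GTC-1-5, chr2L:8541761-8541832, plus strand: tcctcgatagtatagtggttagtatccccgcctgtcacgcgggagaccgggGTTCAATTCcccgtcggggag

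The 201 bp around 2 of the summits are shown on the plus strand of dm6. The first is centred on the strongest summit, and its capitals mark 2 matches to ACANNTGT, the palindrome bound by Iroquois proteins. The second is centred on a summit that lies inside a tRNA gene, and its capitals mark the B box match of that gene.
Summit at tRNA:Tyr-GTA-1-8, chr3R:8669269-8669469: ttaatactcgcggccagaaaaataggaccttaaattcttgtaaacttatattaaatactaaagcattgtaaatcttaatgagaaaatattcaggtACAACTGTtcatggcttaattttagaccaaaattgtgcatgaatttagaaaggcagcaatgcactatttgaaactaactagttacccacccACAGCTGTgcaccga
Summit in tRNA:Asp-GTC-1-5, chr2L:8541687-8541887: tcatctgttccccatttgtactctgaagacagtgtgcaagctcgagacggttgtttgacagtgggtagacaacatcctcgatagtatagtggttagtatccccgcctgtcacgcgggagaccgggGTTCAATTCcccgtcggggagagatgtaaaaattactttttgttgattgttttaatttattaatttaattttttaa

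Optimal peaks were found at a smaller share of tRNA genes than of genes in general. Of the 290 tRNA genes 37 were called (12.8%, 95% Wilson interval 9.40 to 17.1), against 22.8% of all 18164 genes by the same rule. Protein-coding genes were called at 25.6%, snoRNA genes at 25.3%, snRNA genes at 25% and other non-coding RNA genes at 13.6%. The 37 genes shared 25 distinct summits, so neighbours are not independent observations. Intervals here cover counting error only.

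Some of the called tRNA genes had no summit but one nearer to another gene. A summit whose nearest transcription start site (TSS) was that of a tRNA gene lay within 1 kb of 23 genes (7.93%, 5.34 to 11.6) at 15 summits, and the other 10 summits were nearer to the TSS of another gene. The same own-class rule gave 25.2% of protein-coding genes, 21.9% of snRNA genes, 8.46% of non-coding RNA genes and 6.32% of snoRNA genes. No summit was equally far from both kinds of TSS.

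Called tRNA genes were concentrated beside other promoters. Of the 100 tRNA genes with the TSS of a gene that is no tRNA within 1 kb, 22 were called (22%, 15.0 to 31.1). The share was 12 of 119 (10.1%, 5.86 to 16.8) where that TSS lay 1 to 5 kb away, and 3 of 71 (4.23%, 1.45 to 11.7) beyond 5 kb. The nearest and the farthest class had intervals that did not overlap. For summits nearest a tRNA alone the shares were 10% (5.52 to 17.4), 8.40% (4.63 to 14.8) and 4.23% (1.45 to 11.7) in the same order, with overlapping intervals. Among the 190 tRNA genes with no TSS of another biotype within 1 kb, 7.89% were called. The same rule, which allows neighbours of the gene's own biotype, gave 8.92% of snoRNA, 8.7% of non-coding RNA and 25.4% of protein-coding genes. Genes free of every neighbouring TSS were not compared.

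Uniform random placement of the summits gives each stretch of DNA the density of the whole arms, 45.2 optimal summits per Mb, and this served as the exact expectation without any random draw. Within 1 kb of the tRNA starts the density was 64.8 per Mb (95% Poisson interval 41.9 to 95.7), an interval that includes the level of the arms. Closer to the starts it was 81.9 per Mb (48.5 to 129) within 500 bp and 94.2 (48.7 to 165) within 250 bp, both with intervals above that level. In the bases of these windows that also lay within 1 kb of another TSS it was 145 per Mb (85.8 to 229), beside 118 per Mb near all such TSSs. In the bases over 1 kb from every other TSS it was 26.8 per Mb (10.8 to 55.2, 7 summits), beside 23.0 per Mb in all such DNA. Within 250 bp of the starts these bases had 47.0 per Mb (12.8 to 120, 4 summits). In both kinds of DNA the interval within 1 kb of tRNA starts included the level of the same kind of DNA elsewhere.

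**Figure D1:**
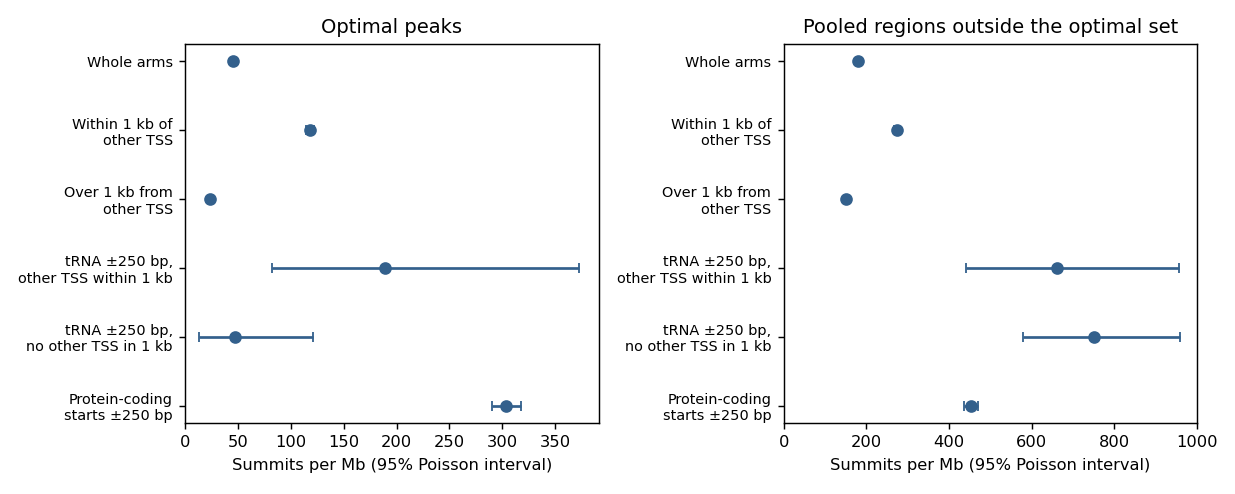
Summits per Mb with 95% Poisson intervals in whole arms, near and far from the TSSs of other genes, within 250 bp of tRNA starts with and without another TSS within 1 kb, and within 250 bp of protein-coding starts. Optimal peaks (left) at tRNA starts away from other TSSs overlap the level of whole arms, 45.2 per Mb, while weak regions (right) reach 752 per Mb there against 179 in whole arms.

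The strongest of the 15 summits nearest a tRNA start lay 195 bp upstream of tRNA:Tyr-GTA-1-8 on 3R, with tRNA:Tyr-GTA-1-7 at 664 bp. Its signal value was 1839 in the pooled list, and 634, 453 and 769 in replicates 1, 2 and 3, each on the scale of its own list. It ranked 118 in the pooled list and 121, 132 and 114 in the replicates, so all 3 replicates placed it high. Both genes lie in introns of CG8036 and p, and the TSS of CG8036 was 249 bp from the summit, so the distances to the tRNA and to the protein-coding start differ by less than the width of the peak, 371 bp.

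The summit at tRNA:Leu-TAA-2-1, which reads a leucine codon, came next, 215 bp from the gene start. Its signal was 759 in the pooled list and 279, 141 and 319 in replicates 1, 2 and 3. The gene lies between other genes on 3R, and the TSS of CG13605 was 360 bp from the summit. At tRNA:Ile-AAT-1-9 the summit lay 568 bp away with a signal of 547, and 213, 119 and 223 in the replicates. These 3 summits were within the top regions of every replicate.

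Of the middle group, the summit of signal 470 lay between tRNA:Arg-CCT-1-2 and tRNA:Arg-CCT-1-3, at 196 and 255 bp. The nearest other TSS was 4439 bp away, and its replicate ranks were 3665, 1875 and 1332. A summit of signal 415 lay 136 bp from tRNA:Thr-AGT-1-2 and 926 bp from tRNA:Thr-AGT-2-1, with replicate ranks of 4803, 1587 and 1820. Replicate 1 was the weakest by rank at both. A summit of signal 372 lay 883 bp from tRNA:Thr-AGT-1-1, in an intron of tai, with the nearest other TSS 15331 bp away. A summit of signal 333 lay beyond both tRNA:Ala-TGC-1-1 and tRNA:Ala-TGC-2-1 on the same side, at 712 and 342 bp from their starts. All of these were in the top regions of all 3 replicates.

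Inside tRNA genes lay 2 optimal summits, a density of 90.8 per Mb (11.0 to 328). This interval includes the 45.2 per Mb of the whole arms. One lay 45 bp into tRNA:Ser-AGA-2-4 on 2L, with a signal of 308 and replicate ranks of 4657, 7138 and 2467. The other lay 26 bp into tRNA:Asp-GTC-1-5 on 2L, with a signal of 240 and replicate ranks of 6395, 3846 and 6869, and tRNA:Asp-GTC-1-4 starts 164 bp from it. Each was outside the top regions of at least 1 replicate, the first in replicate 2 and the second in replicates 1 and 3.

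The remaining summits nearest a tRNA had signals from 209 to 317, below the median of all optimal peaks, 333. They lay at tRNA:Glu-TTC-1-5 (317, also within 1 kb of tRNA:Glu-TTC-1-6 and tRNA:Glu-CTC-2-1), tRNA:Thr-AGT-1-4 (266), tRNA:Glu-CTC-3-1 (247), tRNA:Ile-AAT-1-8 (244), tRNA:Ser-TGA-2-1 with tRNA:Ser-TGA-1-1 (230) and tRNA:Phe-GAA-1-3 (209). The last ranked 6039 of the 6056 optimal peaks. Over all 15 the median signal was 317, and 9 were in the top regions of all 3 replicates (60%, 35.7 to 80.2), next to 62.7% of all optimal peaks. The 9 include the summit at tRNA:Glu-TTC-1-5. In replicates 1 and 2 the region that counted for it also held a stronger summit nearer a snoRNA gene.

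**Figure D2:**
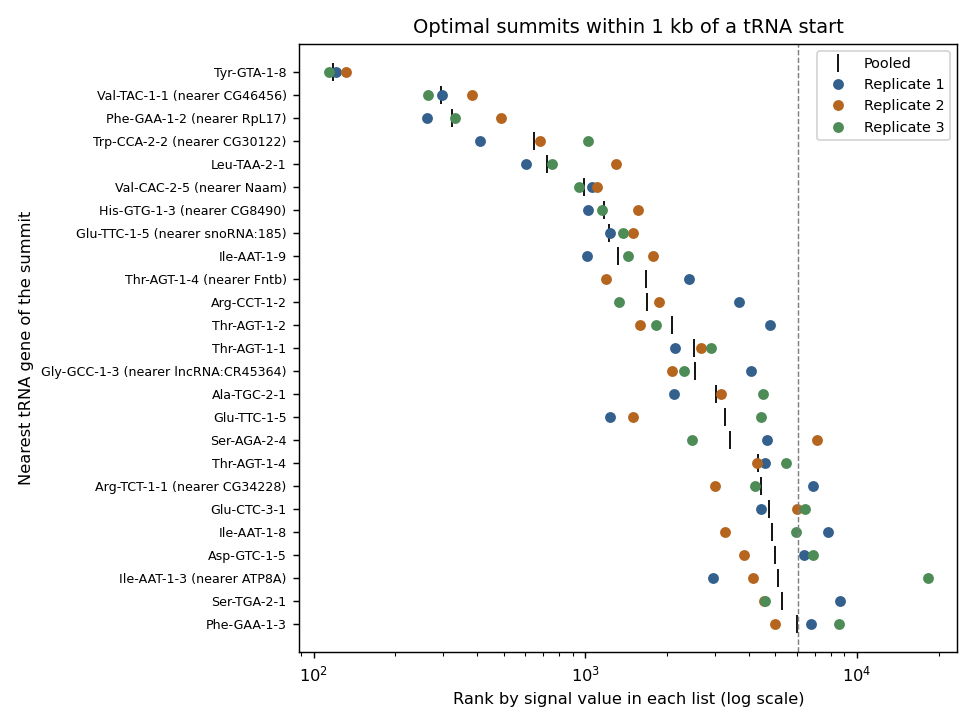
Rank by signal value (log scale, 1 is strongest) of the 25 optimal summits within 1 kb of a tRNA start, in the pooled list (bars) and in each replicate (points); names in parentheses are other genes whose TSS is nearer, and the dashed line is rank 6056. The strongest summit keeps ranks from 114 to 132, while the summit at tRNA:Ile-AAT-1-3 reaches rank 18195 in replicate 3 and the summit nearer Fntb has no region there.

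The 10 summits nearer to another gene's TSS had a median signal of 581, and 7 of them were in the top regions of all 3 replicates. The strongest had a signal of 1216 and lay 145 bp from the TSS that lama shares with CG46456, and 852 bp from tRNA:Val-TAC-1-1. Its values in replicates 1, 2 and 3 were 401, 275 and 547. The next lay 82 bp from RpL17, which encodes a protein of the large ribosomal subunit, and 223 bp from tRNA:Phe-GAA-1-2, with a signal of 1157 and 424, 241 and 480 in the replicates. A summit of signal 801 lay 24 bp from CG30122 and 263 bp from tRNA:Trp-CCA-2-2, with tRNA:Gly-GCC-1-9 also in reach.

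The others of this kind were nearer Naam (639, beside tRNA:Val-CAC-2-5), CG8490 (587, beside tRNA:His-GTG-1-3 and tRNA:His-GTG-1-2), a snoRNA gene (576, beside tRNA:Glu-TTC-1-5 and 2 of its neighbours), Fntb (473, beside tRNA:Thr-AGT-1-4), lncRNA:CR45364 (371, beside tRNA:Gly-GCC-1-3), CG34228 (260, beside tRNA:Arg-TCT-1-1 and tRNA:Met-CAT-1-1) and ATP8A (235, beside tRNA:Ile-AAT-1-3 and 2 neighbours). For Naam, an enzyme of nicotinamide metabolism, the 2 distances were close, 433 bp to its TSS and 466 bp to the tRNA start. The summit near Fntb, a farnesyltransferase subunit, lay in no region of replicate 3, and the summit near ATP8A had rank 18195 there. The summits nearer that snoRNA gene and nearer tRNA:Glu-TTC-1-5 lay in the same region of replicate 1, of rank 1236, and of replicate 2, of rank 1494.

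At the edge of the 1 kb window, the called genes farthest from their summit were tRNA:Glu-TTC-1-4 at 977 bp, tRNA:Thr-AGT-2-1 at 926 bp and tRNA:His-GTG-1-2 at 916 bp. Just outside lay tRNA:Met-CAT-1-2 at 1044 bp, tRNA:Lys-TTT-2-1 at 1151 bp and tRNA:Tyr-GTA-1-6 at 1161 bp.

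By amino acid, the highest share of called genes was in the histidine group, 2 of 5 genes (40%, 11.8 to 76.9), both through the summit nearer CG8490. Isoleucine followed with 4 of 11 (36.4%, 15.2 to 64.6), glutamate with 5 of 19 (26.3%, 11.8 to 48.8) and threonine with 4 of 17 (23.5%, 9.56 to 47.3). Each of the 4 threonine genes had a summit nearest a tRNA start, and tRNA:Thr-AGT-1-4 had the summit nearer Fntb as well. Of the 22 groups 7 had no called gene: lysine (19 genes, upper limit 16.8%), proline (17, 18.4%), glutamine (12, 24.2%), asparagine (10, 27.8%), cysteine (7, 35.4%), initiator methionine (6, 39.0%) and selenocysteine (1 gene). The intervals of all 22 groups overlapped. Within 1 kb of another TSS lay 40% of the histidine, 36.4% of the isoleucine, 26.3% of the lysine and 47.1% of the proline genes.

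In the pooled list the amino acid groups stood in another order. All 11 isoleucine genes had a pooled summit within 1 kb, as did 21 of 22 leucine genes and 16 of 17 alanine genes, though only 2 leucine and 2 alanine genes were called in the optimal set. Of the 6 genes of elongator methionine tRNA 1 had a pooled summit, and this gene, tRNA:Met-CAT-1-1, was also called. Lysine, with no called gene, had 11 of 19 in the pooled list.

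**Figure D3:**
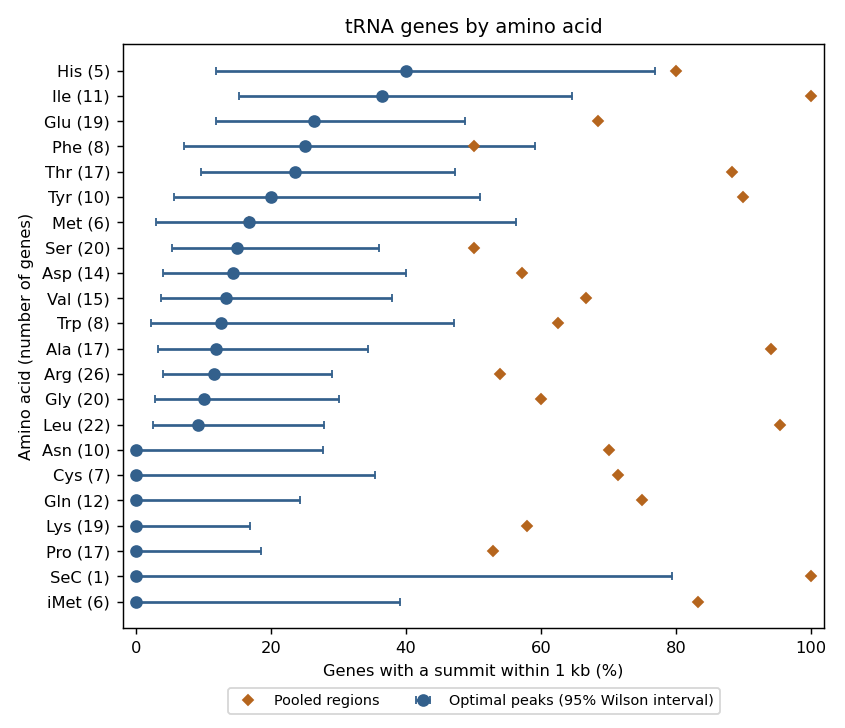
Percent of the tRNA genes of each amino acid with a summit within 1 kb, in the optimal set (circles, 95% Wilson intervals) and in the pooled list (diamonds), with the number of genes in parentheses. Histidine (40%) and isoleucine (36.4%) are highest in the optimal set with wide intervals, and 7 groups are at 0.

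Genes in clusters, with another tRNA start within 5 kb, were called about as often as single genes. The counts were 28 of 214 clustered genes (13.1%, 9.21 to 18.3) at 15 distinct summits and 9 of 76 single genes (11.8%, 6.36 to 21.0) at 10 summits. Counted by place, 14 of 68 clusters and 9 of 76 single genes had an optimal summit. When only peaks in the top regions of replicates 1 and 3 were kept, leaving out replicate 2, the clustered share was 8.41% and the single share 9.21%. Without replicate 1 the shares were 9.81% and 10.5%, and without replicate 3 9.81% and 9.21%, so the order of the 2 kinds was not the same in each.

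Counted by gene, pairs had the highest share, 16 of 76 genes (21.1%, 13.4 to 31.5), through 9 distinct summits. Clusters of 3 to 5 genes had 5 of 71 (7.04%, 3.05 to 15.4) and clusters of 6 or more 7 of 67 (10.4%, 5.15 to 20.03). These intervals take genes that share a summit as independent. Counted by place, 9 of 38 pairs and 2 of 9 clusters of 6 or more held a called gene. In single genes within 1 kb of another TSS 6 of 23 were called, and in clustered genes there 16 of 77. Beyond 5 kb from other TSSs it was 2 of 22 single and 1 of 49 clustered genes.

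The longest runs of tRNA genes held no optimal summit. A run of 11 genes on 2R, with arginine, asparagine, lysine and isoleucine genes over 10152 bp, had 0 called genes, and its strongest pooled region ranked 14268. A run of 11 genes on 3R (chr3R:17617761-17631679), with valine, proline, alanine and threonine genes, also had 0, with a strongest pooled rank of 8263. All 11 genes of each run nevertheless had a pooled region within 1 kb, from 7 and 8 distinct summits. Of the 3 runs of 7 genes, the run of isoleucine and leucine genes in ATP8A had 3 called genes through 1 summit. The run of initiator methionine and glutamate genes had 4 called through 2 summits, and the run of arginine and serine genes on X (chrX:14014814-14017212) had 0. The runs of 6 genes, 3 on 3L and 1 on 3R, had no called gene.

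Arm 2R carried most of the called genes. There 23 of 98 tRNA genes were called (23.5%, 16.2 to 32.8), through 12 of the 25 summits. The shares were 6 of 41 on 2L (14.6%, 6.88 to 28.4), 5 of 79 on 3R (6.33%, 2.73 to 14.0), 2 of 48 on 3L (4.17%, 1.15 to 14.0) and 1 of 24 on X (4.17%, 0.739 to 20.2). The intervals of 2R did not overlap those of 3R and 3L, but they take genes that share a summit as independent. For summits nearest a tRNA alone the share was 13.3% on 2R (7.92 to 21.4), 12.2% on 2L (5.32 to 25.5), 5.06% on 3R (1.99 to 12.3) and 2.08% on 3L (0.369 to 10.9), and all these intervals overlapped. Protein-coding genes showed no such spread, with 26.4% called on 2R, 26.1% on 3R and 27.1% on 3L. On 2R 32.7% of the tRNA genes had another TSS within 1 kb, against 45.6% on 3R and 25% on 3L. Without 2R, 7.29% of the tRNA genes were called.

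No family of identical tRNA genes was called in full. The 290 genes have 95 distinct sequences, of which 52 occur once, and the other 238 genes fall into 43 families of identical copies. Of the 52 genes of unique sequence 10 were called (19.2%, 10.8 to 31.9), and of the 238 copies 27 (11.3%, 7.91 to 16.0). A called gene was present in 15 families, and each of the 27 called copies had an identical gene that was not called. Neighbouring copies could be called through a shared summit, as were tRNA:Asp-GTC-1-4 with tRNA:Asp-GTC-1-5 and tRNA:Arg-CCT-1-2 with tRNA:Arg-CCT-1-3. In the largest families, glycine GCC had 2 of 13 copies called, lysine CTT 0 of 13 and aspartate GTC 2 of 12. Isoleucine AAT had 4 of 9 called, and all 9 had a pooled region within 1 kb. The B box motif GTTCNANNC, read on the gene's own strand, was present in 271 of the 290 genes. Of these 36 were called (13.3%, 9.75 to 17.8), near the 12.8% of all tRNA genes. Of the 19 genes without it 1 was called (5.26%, 0.935 to 24.6), and the 2 intervals overlapped.

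Short reads can be placed less surely in repeated genes. Of the 31-mers that lie wholly inside a tRNA gene, the median gene had 0% that occur once in the genome. In the windows of 1 kb to each side the median was 95.4% for called and 95.3% for other tRNA genes. The lowest values were 65.7% among called genes, at tRNA:Ile-AAT-1-9, and 16.6% among the others. The part of read placement in the results was not tested.

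A different picture appeared below the optimal set. In the pooled list 200 of 290 tRNA genes had a summit within 1 kb (69%, 63.4 to 74.0), against 49.9% of all genes, 52.4% of protein-coding genes, 53.1% of snRNA genes, 49.8% of snoRNA genes and 41.9% of other non-coding RNA genes. Of the 253 tRNA genes not called, 163 had such a region (64.4%), with a median best rank of 13711 of 30000. Of all 18164 genes 9060 had a pooled summit within 1 kb, and 4134 of them an optimal one. None of the 253 lay within 1 kb of a top region in all 3 replicates. The optimal set was drawn from the same replicates, so this is not independent of the call. Uncalled genes of other kinds were not counted in this way. In 143 tRNA genes (49.3%) a region of every replicate lay within 1 kb, against 39.5% of all genes. In 47 tRNA genes (16.2%) no replicate had one, against 34.9% of all genes.

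Weak regions gathered close to the tRNA starts. Within 250 bp of them lay 92 weak summits, 722 per Mb (582 to 886), which is 4.04 times the 179 per Mb of the whole arms. In the bases over 1 kb from every other TSS the density was as high, 752 per Mb (579 to 960), against 150 per Mb in all such DNA. By 200 bp step, gene-summit pairs numbered 42 and 40 in the steps just upstream of the start and 50 and 39 just downstream, and 24 and 30 in the steps 800 to 1000 bp away on each side. Inside the tRNA genes themselves lay 31 pooled summits, 29 of them weak.

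**Figure D4:**
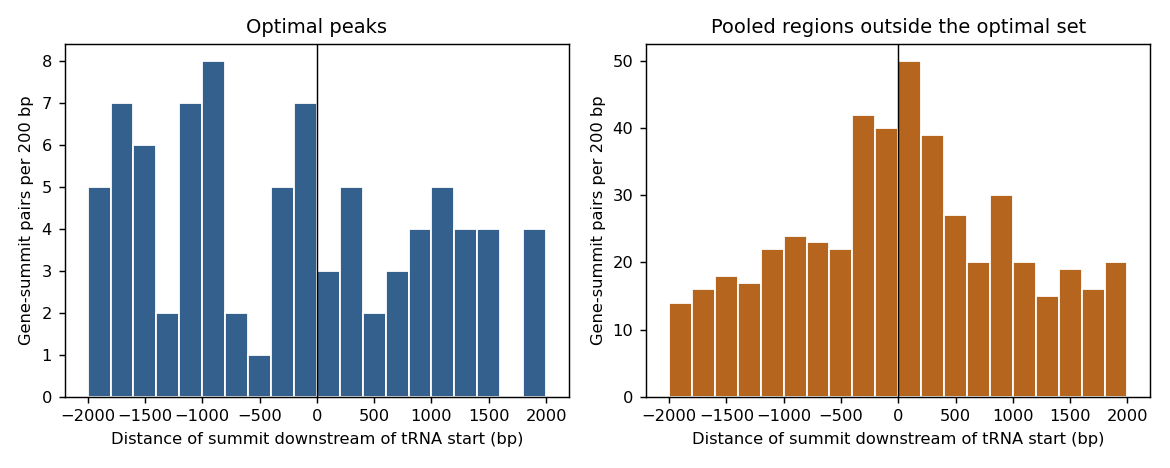
Number of gene-summit pairs per 200 bp against the distance of the summit downstream of the tRNA start, for optimal peaks (left) and weak pooled regions (right); a summit near several tRNA genes counts for each. Weak regions are highest from 400 bp upstream to 400 bp downstream, with 39 to 50 pairs a step, and optimal peaks show from 1 to 8 pairs a step within 1 kb.

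In the full lists, the density of regions close to tRNA starts differed between replicates. Weak regions are defined in the pooled list and were not separated by replicate. Over all 30000 regions of a list, the density within 250 bp of tRNA starts was 958 per Mb (796 to 1144) in replicate 1, 455 (346 to 589) in replicate 2 and 856 (703 to 1032) in replicate 3. These are 4.27, 2.03 and 3.82 times the whole arms, and the interval of replicate 2 did not overlap the others. The same ratio at protein-coding starts was 3.82, 3.28 and 3.29, so tRNA starts were above protein-coding starts in replicates 1 and 3, with overlapping intervals, and below them in replicate 2, where the intervals were apart. Inside the tRNA genes lay 39, 12 and 31 summits in replicates 1, 2 and 3. Within 250 bp of a region were 141, 62 and 118 tRNA genes (48.6%, 21.4% and 40.7%), against 37%, 31.8% and 31.3% of all genes. In the pooled list it was 115 tRNA genes (39.7%) against 32.6% of all genes, and in 47 tRNA genes (16.2%) all 3 replicates had such a region, against 21.6% of all genes.

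**Figure D5:**
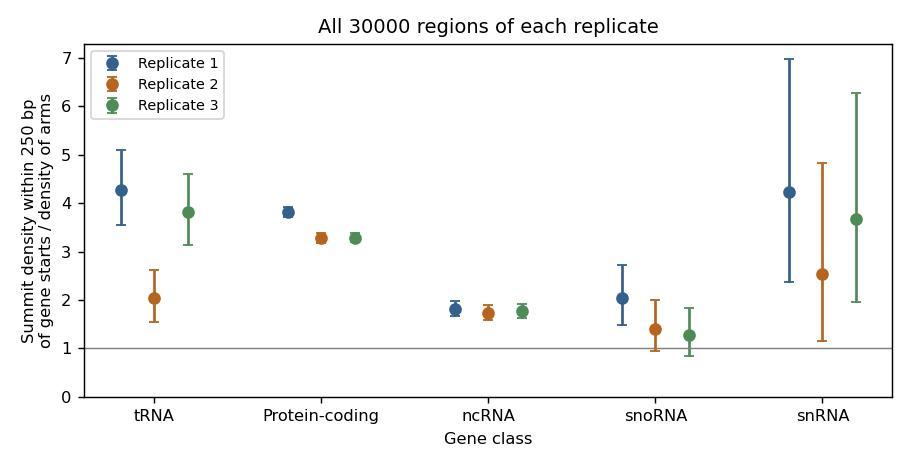
Density of summits within 250 bp of gene starts relative to the whole arms, for each replicate's 30000 regions, by gene class, with 95% Poisson intervals; the line at 1 is the density of whole arms. tRNA genes stand at 4.27, 2.03 and 3.82 in replicates 1, 2 and 3, the widest spread between replicates among tRNA, protein-coding, non-coding RNA and snoRNA genes. Replicate 2 is also lowest at snRNA genes, which stand at 4.23, 2.54 and 3.67 with wide intervals.

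Whether tRNA starts exceeded protein-coding starts also depended on which pooled regions were counted. Among weak regions it was 722 against 453 per Mb (437 to 470). Over all pooled regions it was 817 (667 to 989) against 756 (735 to 778), with overlapping intervals. The optimal set, which the weak regions leave out, holds 1933 of the 4819 pooled summits at protein-coding starts and 12 of the 104 at tRNA starts.

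Between groups of tRNA genes the densities of weak regions had overlapping intervals. The density was 795 per Mb (621 to 1003) at clustered and 552 (341 to 843) at single tRNA genes. Over all regions of a list, clustered and single genes stood at 885 and 657 per Mb in the pooled list and at 403 and 578 in replicate 2, with overlapping intervals. Weak regions had 748 per Mb at genes with identical copies and 708 at genes of unique sequence. By arm their density ran from 931 per Mb on 2R (662 to 1273) to 380 on X (103 to 972), with overlapping intervals, and 2R was also the arm with the highest share of called genes.

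Motifs were sought on both strands within 100 bp of the 25 optimal summits near tRNA genes and of all 6056 optimal summits. The Iroquois palindrome ACANNTGT was present at 2 of the 25, those at tRNA:Tyr-GTA-1-8 and tRNA:Arg-CCT-1-2, and at 11.5% of all. The sequence TATCGATA, bound by DREF, was present at 1 of 25 and 3.62% of all, GGTCACAC at 1 and 2.81%, CAGNNCTG at 0 and 6.27%, and ACACTG at 4 and 18.3%. The B box motif GTTCNANNC was present at 6 of 25 (24%) and at 7.05% of all, 3 times at summits nearest a tRNA and 3 times at summits nearer another TSS. A tRNA gene inside such a window brings its own B box, so this count is not independent of how the summits were chosen.

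The protein machinery that makes and uses tRNAs is encoded by genes of RNA polymerase II, and these are given by the same rule for the gene start, which called 25.6% of protein-coding genes. Of 10 matched RNA polymerase III subunit genes 2 had an optimal summit within 1 kb, Polr3E (1017) and Polr3F (290). Of 9 transcription factors and regulators of this polymerase 4 had one: the TFIIIB subunits Bdp1 (1148) and Brf (1065), the snRNA gene activator subunit Pbp95 (272) and the TBP-related factor Trf (238). Of 14 processing and modification genes 3 had one, the splicing endonuclease subunit Tsen34 (566), the 3′ end nuclease RNaseZ (351) and the methyltransferase Mt2 (270). Of 35 aminoacyl-tRNA synthetase genes, which charge tRNAs with amino acids, 10 had one (28.6%, 16.3 to 45.0), the strongest being LeuRS-m (1144), SerRS (907), IleRS (799), ThrRS (718), GluProRS (589) and AsnRS (404). The summits of LeuRS-m, Trf and Tsen34 lay 931, 928 and 626 bp from the gene start. The other genes named here had theirs closer, such as SerRS at 20 bp. Summits nearer to another TSS were not separated in these lists. The intervals of the subunit, factor, processing and synthetase lists all included the share of protein-coding genes.

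Among 110 genes listed as other templates of RNA polymerase III, the 5S ribosomal RNA copies and the rest differed in share. Of the 100 copies of 5S, 0 were called (upper limit 3.70%) and 1 had a pooled region within 1 kb. These copies all lie on 2R, and some are annotated as pseudogenes. The limit takes them as independent, which copies of a repeated gene are not. Of the other 10 genes 3 were called (30%, 10.8 to 60.3), an interval that includes the share of tRNA genes: snRNA:7SKa (582), the RNA that restrains the elongation factor P-TEFb, and the U6 spliceosomal genes snRNA:U6:96Ab and snRNA:U6:96Ac, which share a summit of signal 379. In the pooled list 6 of these 10 had a region within 1 kb. All genes together stood at 22.8% and 49.9%. How surely reads can be placed in single 5S copies was not measured, and its part in these counts was not tested.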

How the data were processed

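The ChIP-seq regions are those of 3 biological replicates of whole embryos, on dm6. The authors deposited for each region a signal value, an enrichment statistic on a scale that is not given, used here only to rank, describe and filter. The deposited −log10 q value was not used, and the p column holds a placeholder. The region start and the offset of its summit, both deposited by the authors, gave the 1-based summit position. Control alignments named in the deposited notes are not analysed here, and the dm3 lists are not used here. The aligner, the caller and the cutoff of the reproducibility test were not given in the sources used here. Read counts are not part of the lists, so depth is unknown.

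Genes came from the Ensembl release 115 annotation of the same assembly, with pseudogenes included, and all 290 tRNA genes have the same coordinates in RefSeq, whose genome gave the sequences. A gene's start is the 5′ end of the gene on its strand, and nearest TSSs were sought over 23581 distinct starts of all transcripts. A replicate's rank for a summit is that of its strongest region that holds the summit. Shares have Wilson 95% intervals and densities exact Poisson intervals. With 1 group no test was made, and densities over whole arms stood in for random placements. Python 3.11.15, numpy 2.4.6, pandas 2.3.3 and scipy 1.17.1 were used, and the assignment of summits was tested on simulated data. Named genes are the tRNA genes with the strongest tRNA-nearest summits, up to 20, the 10 strongest summits nearer another gene, the extreme amino acid groups, the longest runs and up to 6 called genes a list; tRNA:Ser-TGA-1-1, tRNA:Ser-TGA-2-1 and tRNA:Phe-GAA-1-3 complete the first group and were added after their values were seen. Of the genes with a tRNA-nearest summit, those on 2R or identical to a gene on 2R have no sequence printed. Members, lists and rules were chosen with earlier results of these data known. The windows of 250 bp, the weak regions and their splits by copy, arm and cluster were chosen after seeing the data. The names of 5 listed genes or groups found no match and are not analysed here.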

Additional observations from a re-analysis of the deposited data

How the results depend on the processing

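Peaks kept by overlap, in place of the summit, called 42 tRNA genes, and 4 of 9 alternatives left the count of 37 within 1.5 times. The count was 13, 20 and 68 with windows of 250, 500 and 2000 bp, 23 with the 3028 strongest optimal peaks, 24 with peaks in the top regions of all 3 replicates, and 25 to 29 with 1 replicate left out. The count of genes with a tRNA-nearest summit, 23, became 11, 15 and 38 with these windows, 11 with the 3028 strongest, 15 with all 3 replicates and 16 to 18 with 1 replicate left out. The 15 with all 3 replicates include genes reached by the summit at tRNA:Glu-TTC-1-5. In replicates 1 and 2 that summit shared its region with a stronger one. The clustered share became 4.21%, 6.54% and 25.2% with these windows, 7.48% with the 3028 strongest, 7.94% with all 3 replicates and 8.41% to 9.81% with 1 replicate left out. The single share became 5.26% at 250 bp and was 9.21% to 10.5% with 1 replicate left out. Leaving out a replicate keeps the peaks in the top regions of the other 2, so the counts can only fall. Cluster distances of 1 and 20 kb moved neither share beyond its interval. With the 15000 strongest pooled regions 126 genes had a summit within 1 kb. The share without arm 2R, 7.29%, and the density ratios were added after seeing the data: the ratio of 4.04 for weak regions was 3.64 over all pooled regions, and against that value it was 2.03 over all regions of replicate 2, and 2.90 and 2.33 over all pooled regions with windows of 500 and 1000 bp. The causes of these differences were not tested. No paired analysis was possible because there is 1 group. The unknown depth limits any statement on genes without a region.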

Other observations

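Among the 253 tRNA genes that were not called, 34 (13.4%, 9.78 to 18.2) had a region within 250 bp of the start in the pooled list and in each of the 3 replicates. The share among uncalled genes of all kinds was not computed. By the 3 replicates alone, with called genes included, it was 16.2% of tRNA genes against 21.6% of all genes. The following genes were picked after their values were seen, as the 4 of highest pooled rank. At tRNA:Glu-CTC-2-3 on 3L the pooled region had a signal of 206 and rank 6135, just outside the optimal set, with ranks of 4606, 8769 and 8755 in replicates 1, 2 and 3. At tRNA:Leu-TAA-4-1 on 3R, a single gene, the pooled rank was 6223 and the replicate ranks 7466, 9628 and 5122. At tRNA:Lys-CTT-1-1 on 2R, of an amino acid group with no called gene, the pooled rank was 6532 and the replicate ranks 5751, 11990 and 7233. At tRNA:Cys-GCA-1-4 on 3L, in a run of 6 genes, the pooled rank was 6820 and the replicate ranks 9673, 4493 and 8485. Replicate 2 gave the weakest rank at the first 3 of these genes and the strongest at the last.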
